A study of Caenorhabditis elegans with 24 samples.

Results

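The 2 series of descendant libraries, replicate 2 and replicate 1, were compared generation by generation. Each series holds 9 libraries, 1 in every generation from F3 to F7 and 1 each at F10, F15, F20 and F25, so 18 of the 24 small RNA libraries of the study were set against each other as 9 pairs. The members were chosen by their label: generation and replicate number. The animals were Caenorhabditis elegans labelled wild type, descended from meg-3 meg-4 mutants (called meg-3/4 here) that had been outcrossed. They were collected as synchronous populations of whole young adults that had been fed Escherichia coli OP50 at 20 °C. Pairs of libraries from meg-3/4 mutants (strain JH3225) and from wild type (strain N2) served as controls for what the replicate number alone carries. A further pair came from triple mutants that also lack hrde-1. The labels call the libraries of a group biological replicates. They do not say that 1 number follows 1 line of animals through the generations, nor how the animals were taken from generation to generation. Libraries of 1 series may therefore share ancestors, and the p-values measure the spread of the difference from generation to generation within these 2 series.

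MEG-3 and MEG-4 are disordered proteins that build germ granules, the RNA-rich condensates of the germline. Worm germ cells make secondary small interfering RNAs, which are copied from messenger RNAs by RNA-dependent RNA polymerases, bind Argonaute proteins and can pass from parent to offspring. HRDE-1 is the nuclear Argonaute of that inheritance. Such small RNAs are antisense to the gene they are copied from, and a gene with many of them can be silenced for generations.

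The values are normalized counts, which are reads per gene divided by a depth factor for each library. A count of features opposite microRNA genes showed that the counted strand is the one antisense to the annotated gene. Depth was between 392785 reads (F10, replicate 1) and 3420345 reads (F6, replicate 2). The F4 library of replicate 2 was similarly shallow, with 395527 reads. A single read is worth 4.99 normalized counts in that F4 library and 5.47 in that F10 library. Replicate 2 was deeper in 6 of 9 generations, and the depth difference was within its spread (exact sign-flip permutation over 9 pairs, two-sided, p = 0.664). Because whole animals were used, fewer cells of a type and less RNA per cell cannot be told apart.

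The question is which small RNA states differ steadily between the 2 series. Levels were compared as log2(normalized count + 5), replicate 2 minus replicate 1, with generation as a block. Of 8869 features with enough reads, 109 were higher and 75 lower in replicate 2 (2.07% called in all, 1.23% higher and 0.846% lower; limma with Benjamini-Hochberg adjustment over all features, adjusted p under 0.05). A feature is named steady where it was called and its replicate 2 level lay on the same side of replicate 1 in all 9 generations. There were 102 steady features (1.15%), 65 of them higher (0.733%) and 37 lower (0.417%) in replicate 2. Irrespective of the test, replicate 2 was on 1 side in all 9 generations at 200 features (2.26%), 126 higher (1.42%) and 74 lower (0.834%). Most of the 102 steady features differed by less than 1 on the log2 scale. Of them, 36 higher and 26 lower features passed 0.5, 14 and 8 passed 1, and 2 and 1 passed 2. The count called depended on single pairs, being 277 without the F4 pair, 108 without the F5 pair, 83 without the F6 pair and 83 without the F7 pair. The steady count was 176 without the F4 pair, for which only 8 generations then had to lie on 1 side. Scaling the libraries to equal totals gave 148 higher and 38 lower features, a different split from that of the deposited scaling.

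In the controls, replicate 2 minus replicate 1 gave 0 called features in the 2 pairs of meg-3/4 and wild type (0% by limma, with 231 features at an unadjusted p under 0.05 and no other tool run). These pairs were fitted together with the 18 descendant libraries, so most of the error in that test is the spread among the descendants. With 2 pairs, even -1.04 ± 0.28 at K11H3.2 and -0.72 ± 0.21 at F31C3.16 were not called. The count of 0 therefore cannot show that the control pairs did not differ. With the meg-3/4 pair left out the count was 5, and with the wild-type pair left out it was 1. The steady features higher in the descendants were on either side in the controls. Of those 65, replicate 2 was higher in 31 and lower in 34 by the mean of the control pairs. Their median difference was 0.52 in the descendants and -0.01 in the controls, on the log2 scale. Of the 37 steady features lower in the descendants, 26 were also lower in the controls, with medians of -0.62 and -0.10. Over all 8869 features, 49.3% were lower in the controls. A direct test of the descendants' difference against that of the controls called 2 features (0.0226%), seld-1 and K11H3.2. It rests on 2 control pairs, and it called 1 feature without the wild-type pair and 6 without the meg-3/4 pair.

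Early and late generations share no library, so they were also fitted apart. In F3 to F7, 124 features were higher and 101 lower in replicate 2 (2.54% called, 1.4% higher and 1.14% lower). In F10 to F25, 24 were higher and 47 lower (0.801% called, 0.271% higher and 0.53% lower). The features called in both periods in the same direction numbered 19, of which 15 were higher and 4 lower. They make up 8.44% of the early calls and 26.8% of the late ones. Of the 225 early calls, 165 had the same sign late, and of the 71 late calls, 59 had the same sign early. How often all features share a sign between the periods was not counted. The early count was 420 without the F4 pair and 127 without the F5 pair. The late count was 115 without the F10 pair, 32 without F15, 47 without F20 and 34 without F25. With equal library totals the early split was 125 higher and 66 lower and the late split 324 higher and 55 lower, and the median of all features in the late comparison shifted by 0.11 on the log2 scale, to 0.13.

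**Figure D1:**
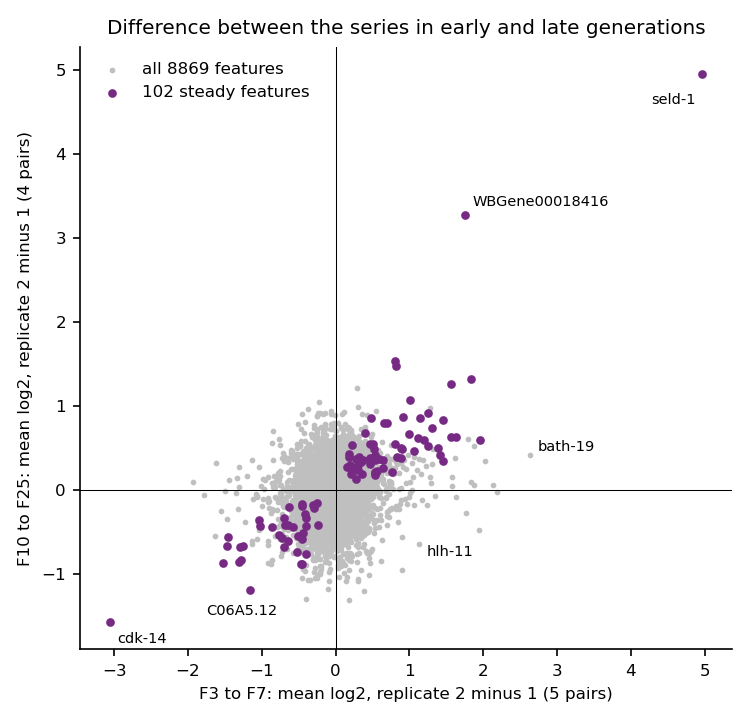
Each point is a feature, with its mean log2 difference, replicate 2 minus replicate 1, over the 5 pairs F3 to F7 (horizontal axis) and over the 4 pairs F10 to F25 (vertical axis). Purple points are the 102 steady features and grey points all 8869 features. The seld-1 gene stands apart at 4.97 early and 4.95 late, WBGene00018416 is further out late, cdk-14 is further out early, and bath-19 is high in the early pairs alone.

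The widest separation was at seld-1 (WBGene00012867, chromosome IV, 13505444 to 13509243, plus strand, WBcel235), a protein-coding gene for selenophosphate synthetase, which makes the selenium donor for selenoproteins. Its antisense small RNAs in replicate 2 were 3367, 2844, 3447, 3376, 3473, 3655, 3725, 3754 and 3079 normalized counts from F3 to F25. In replicate 1 they were 109, 106, 101, 98, 88.3, 137, 127, 91.2 and 91.9. Every library of replicate 2 was therefore far above every library of replicate 1, by a ratio of 26.7 (F10) to 41.1 (F20) within a generation. The difference was 4.96 ± 0.06 on the log2 scale (SE, 9 pairs, limma adjusted p = 2.31e-17).

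Replicate 1 was near the levels of the controls at seld-1, which were 77.6 and 77.4 normalized counts in meg-3/4 and 78.8 and 86.8 in wild type (replicate 2, then replicate 1, as in all control values given here). The meg-3/4 parent strain thus did not have the high state of replicate 2 in these libraries. The triple mutants held 692 and 1115 normalized counts. The difference did not change detectably with generation (slope 0.01 per generation, limma adjusted p = 0.848). Against the controls it was 5.02 (limma adjusted p = 3.28e-13).

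The high state was largely that of 1 gene. The gene afmd-2 (a predicted arylformamidase, from its name) lies on the same strand and overlaps the end of seld-1 by 20 bases. It held 60.8 to 202 normalized counts in replicate 2 and 35.9 to 64.8 in replicate 1, a difference of 1.13 ± 0.13 (limma adjusted p = 0.000163). Its series overlapped only in that the lowest replicate 2 value, at F3, was below the highest replicate 1 value, at F15. The difference at afmd-2 widened with generation (0.06 per generation, limma adjusted p = 0.0297). Unlike those of seld-1, its small RNAs are lost in meg-3/4 (7.86 and 15.5, against 99.3 and 120 in wild type, limma adjusted p = 2.64e-06). Replicate 2 was above both wild-type levels from F15 on, and replicate 1 was below both throughout. Reads in the shared 20 bases cannot be assigned to either gene. On the other side and beyond, tbc-9 (-0.07), puf-3 (-0.08), dcap-2 (-0.21) and rsd-2 (-0.11) were not called, with limma adjusted p between 0.361 and 0.732.

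**Figure D2:**
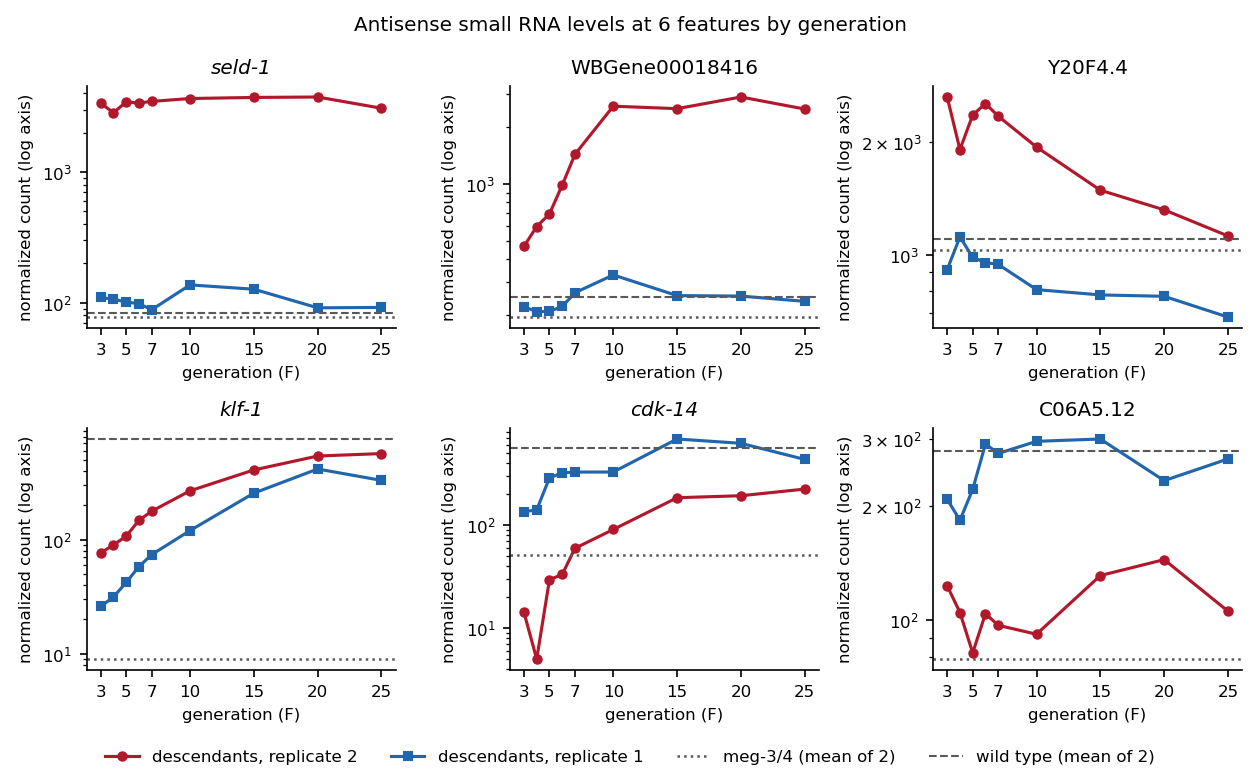
Normalized counts (log axis) of antisense small RNAs at 6 features against generation, for replicate 2 (red circles) and replicate 1 (blue squares), with the means of the 2 meg-3/4 libraries (dotted) and of the 2 wild-type libraries (dashed). The seld-1 lines run flat and far apart, WBGene00018416 climbs in replicate 2 alone, klf-1 climbs in both with replicate 2 above, and cdk-14 climbs in both with replicate 1 above.

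The second-largest difference was at WBGene00018416, an identifier with no match in the annotation used, and it grew with generation. Replicate 2 held 465, 594, 693, 987, 1438, 2592, 2515, 2901 and 2503 normalized counts from F3 to F25. Replicate 1 stayed between 209 and 328 with a median of 238. The lowest replicate 2 value was above the highest replicate 1 value, and the gap, as a ratio, went on widening up to F20. The mean difference was 2.43 ± 0.22 (limma adjusted p = 2.18e-05), and it grew by 0.10 per generation (limma adjusted p = 0.00479). The levels were 200 and 191 in meg-3/4 and 259 and 242 in wild type, so the replicate 1 series was close to both controls.

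A pair of genes not called in meg-3/4 was also higher in replicate 2 throughout. Y20F4.4 (chromosome I) held 1125 to 2640 normalized counts in replicate 2 with a median of 1942, and 684 to 1118 in replicate 1 with a median of 915. The series did not overlap, although both declined from F6 on, and replicate 2 at F25 was next to the wild-type level (1136 and 1068). The difference was 1.10 ± 0.08 (limma adjusted p = 3.93e-06). Y102A5C.36 (chromosome V) held 603 to 1219 in replicate 2 and 274 to 449 in replicate 1, again without overlap (1.18 ± 0.12, limma adjusted p = 5.45e-05). Wild type had 741 and 876 normalized counts there, so replicate 1 was below it throughout and replicate 2 lay on both sides of it.

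Most of the other large differences were at genes whose small RNAs are lost in meg-3/4. At those described next, replicate 2 held more small RNAs in every generation. At klf-1, which encodes a Krüppel-like transcription factor, replicate 2 held 76.6, 89.8, 108, 148, 178, 268, 409, 542 and 570 normalized counts from F3 to F25. Replicate 1 held 26, 31.4, 42.2, 58.1, 74.1, 120, 256, 417 and 331. The meg-3/4 libraries had 6.87 and 11.06 and the wild-type libraries 803 and 726. Both series climbed, replicate 2 was higher in every generation, and neither reached wild type by F25. The mean difference was 1.05 ± 0.10 (limma adjusted p = 2.93e-05). The series overlap over the whole course, and without the generation block the call was lost (limma adjusted p = 0.674).

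The same order held at C05D2.8 (1.42 ± 0.14, limma adjusted p = 4.38e-05), with 39.5 to 112 normalized counts in replicate 2, 9.28 to 61.9 in replicate 1 and 237 and 212 in wild type. At ZK1010.4, replicate 2 was at 163 normalized counts by F3, above the wild-type levels of 130 and 102, while replicate 1 was at 13 and passed 100 only from F15 on. Its difference was 1.35 ± 0.23 (limma adjusted p = 0.00639), and the call was lost with no filter on low values and without the generation block. R06C1.4 held 149 to 299 normalized counts in replicate 2 and 55.7 to 203 in replicate 1 (1.18 ± 0.16, limma adjusted p = 0.000685), against 454 and 633 in wild type. F55B11.6 held 193 to 445 in replicate 2 and 82.0 to 169 in replicate 1, with no overlap (1.11 ± 0.11, limma adjusted p = 4.38e-05). Its 2 series were both below the wild-type levels of 691 and 649 in every generation.

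K11H3.2 was higher in replicate 2 in every descendant pair, but both control pairs went the other way. Replicate 2 held 79.0 to 141 normalized counts and replicate 1 held 24.7 to 64, a difference of 1.04 ± 0.11 (limma adjusted p = 0.000106). Replicate 2 had 8.84 and replicate 1 had 13.3 in meg-3/4, and replicate 2 had 25.7 and replicate 1 had 92.6 in wild type. The call against the controls (2.07, limma adjusted p = 0.0203) therefore includes a control difference of -1.04.

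Among genes that gained small RNAs in meg-3/4, ZC190.8 was the one with the largest steady difference. It held 190, 170, 190, 158, 163, 121, 82.3, 24.7 and 16.9 normalized counts in replicate 2 from F3 to F25, and 48.9, 60.5, 72.1, 47.3, 51.3, 82, 36, 13 and 14.5 in replicate 1. Both series declined towards the wild-type levels of 4.67 and 3.47. The early replicate 2 values were above the meg-3/4 levels of 50.1 and 53.1. The difference was 1.15 ± 0.15 (limma adjusted p = 0.000687), and the call was lost without the generation block.

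In the other direction, cdk-14 (chromosome I, 841742 to 846763, minus strand), named as a cyclin-dependent kinase, had the largest difference. Replicate 2 held 14.2, 4.99, 29.5, 33.2, 59.6, 90.7, 185, 193 and 224 normalized counts from F3 to F25. Replicate 1 held 135, 141, 287, 322, 328, 328, 687, 624 and 435. The F4 value of replicate 2 is a single read. Small RNAs at cdk-14 are lost in meg-3/4 (36.3 and 65.3, against 582 and 545 in wild type). Replicate 1 reached the wild-type level by F15 and replicate 2 had not reached it by F25. The mean difference was -2.40 ± 0.23 (limma adjusted p = 2.73e-05), and the gap narrowed with generation (0.10 per generation towards zero, limma adjusted p = 0.00568, lost without the F25 pair and with no filter on low values). The adjacent genes ZC123.1 (0.02), zfr-1 (-0.05) and pde-6 (-0.05) were not called, with limma adjusted p between 0.919 and 0.935.

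C06A5.12 held 82.1 to 144 normalized counts in replicate 2 with a median of 105, and 183 to 299 in replicate 1 with a median of 265. The series did not overlap, replicate 1 was near wild type (304 and 254) and replicate 2 was nearer to meg-3/4 (61.9 and 96.2). The difference was -1.17 ± 0.10 (limma adjusted p = 1.22e-05), with no detectable slope. At aldo-1, the gene of a fructose-bisphosphate aldolase, replicate 2 held 39.7 to 252 and replicate 1 held 108 to 362 normalized counts. Wild type had 11.09 and 9.84 and meg-3/4 had 24.5 and 28.8, so every library of both series was above both of these groups. The difference between the series was -1.06 ± 0.17 (limma adjusted p = 0.00312). That call was lost with no filter on low values and without the generation block. The Wnt ligand gene cwn-1 held 125 to 161 normalized counts in replicate 2 and 162 to 241 in replicate 1, a small difference with little spread (-0.48 ± 0.06, limma adjusted p = 0.000744). Smaller differences in the same direction were found at nsy-4, which encodes a claudin-like protein (-0.54), at Y38C1AA.12 (-0.44), at Y116A8B.1 (-0.52) and at the pseudogene wee-1.2 (-0.41). Of these, Y116A8B.1 and wee-1.2 lost their calls under several of the alternatives, among them leaving out the F5, F6 or F7 pair. The calls of nsy-4 and Y38C1AA.12 were lost with no filter on low values, that of nsy-4 also without the generation block and that of Y38C1AA.12 also with equal library totals.

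**Figure D3:**
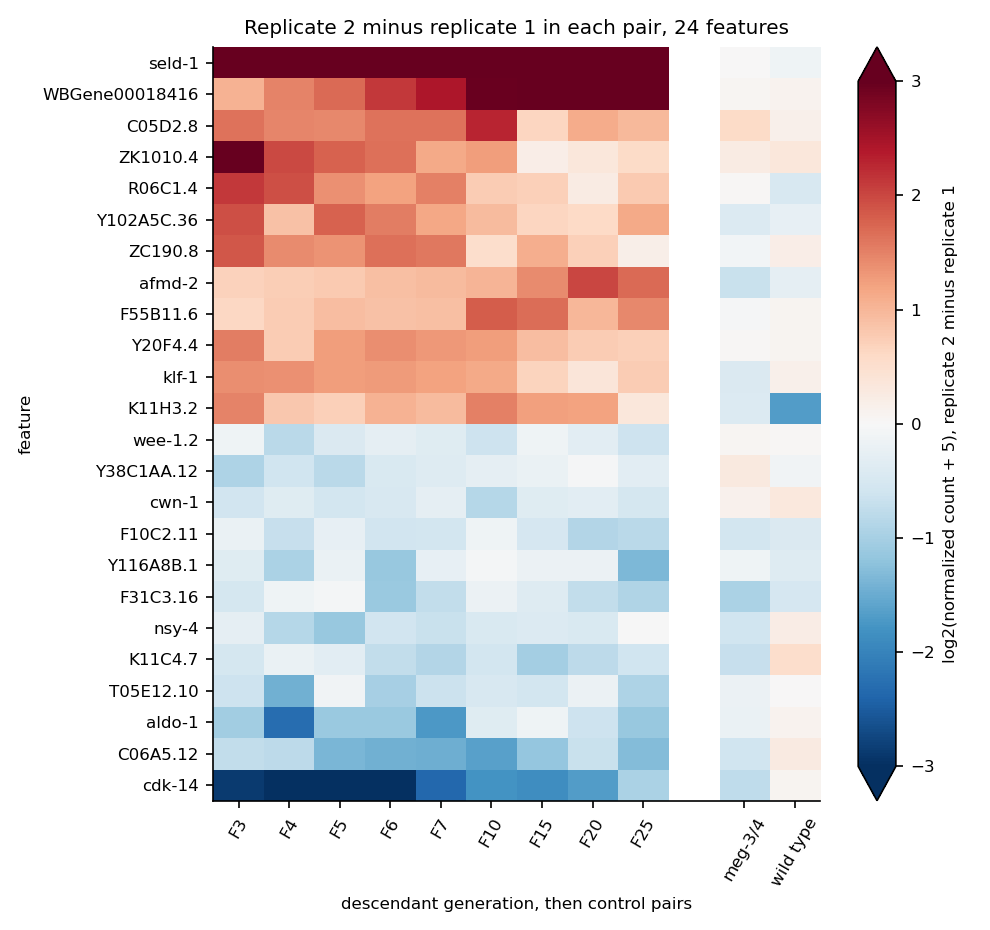
Colours give replicate 2 minus replicate 1 on the log2(normalized count + 5) scale for 24 steady features (rows) in the 9 descendant pairs and, right of the gap, in the meg-3/4 and wild-type control pairs. The scale ends at 3 in either direction, which seld-1 passes in every generation. Rows keep their colour across the generations, several fade from F10 on, and the control columns are mostly pale, with K11H3.2 in wild type as the largest exception.

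Some differences between the series changed with generation. The slope of the difference on generation number was called for 46 features (0.519%), 29 of them rising (0.327%) and 17 falling (0.192%). That count was 83 without the F10 pair and between 26 and 29 without the F3, F5, F6, F20 or F25 pair. A rising slope means that replicate 2 gained on replicate 1.

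In one group of these features, 1 series began high and met the other later. At bath-19, a member of the family with BTB and MATH domains, replicate 2 held 333, 319, 269, 255, 216, 101, 53.5, 31.9 and 28.7 normalized counts from F3 to F25. Replicate 1 was between 25.8 and 56.1 throughout. Small RNAs at bath-19 are gained in meg-3/4 (217 and 219, against 36.2 and 33.0 in wild type), so replicate 2 started at or above the mutant level while replicate 1 was near the wild-type level from F3 on. The difference was 2.64 in F3 to F7 (limma adjusted p = 1.52e-06) and 0.41 in F10 to F25 (limma adjusted p = 0.56), with a slope of -0.15 per generation (limma adjusted p = 0.00127).

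The mirror image was seen at F22H10.10, a non-coding RNA feature on the X chromosome. Replicate 2 held 106 to 198 normalized counts with no clear course. Replicate 1 held 585, 525, 447, 492, 519, 470, 226, 115.5 and 63 from F3 to F25. The meg-3/4 libraries had 538 and 525 and the wild-type libraries 63.1 and 66.0. Replicate 1 thus stayed near the mutant level up to F10 and was at the wild-type level at F25, where replicate 2 was above it. The slope was 0.11 per generation (limma adjusted p = 3.40e-05).

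The histone gene his-47 was high in early replicate 1 libraries although it is not called in meg-3/4 (66.8 and 81.9, against 53.1 and 56.7 in wild type). It held 200, 120, 112, 64.8, 56.5, 65.6, 36.8, 35.1 and 43.9 normalized counts in replicate 2 and 817, 1048, 442, 233, 110, 60.1, 30.2, 44.7 and 34.1 in replicate 1. Its slope was 0.12 per generation (limma adjusted p = 0.0434), a call lost without any 1 of 7 of the pairs. F42A9.8, not called in meg-3/4 either, held 575 normalized counts at F3 and 33.8 at F25 in replicate 2, with a decline in each step up to F10, while replicate 1 was between 16.4 and 68.2 (slope -0.17 per generation, limma adjusted p = 0.00568). E01G4.3, whose small RNAs are gained in meg-3/4 (580 and 868), was at 89.3 to 167 normalized counts in replicate 2 up to F7 and at 32.2 to 43.1 later, and at 32.2 to 66.1 in replicate 1 (slope -0.13 per generation, limma adjusted p = 0.00817). Wild type held 71.2 and 70.6 there, so both series ended below it. The calls at bath-19, F42A9.8 and E01G4.3 were lost with no filter on low values.

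Features lost in meg-3/4 also crossed. At Y55F3BR.2, replicate 2 climbed through 113, 180, 286, 376, 447, 700, 800, 877 and 774 normalized counts from F3 to F25. Replicate 1 held 484 to 979 and was above replicate 2 up to F15 and below it at F20 and F25. The meg-3/4 libraries had 73.6 and 104 there and the wild-type libraries 415 and 498. Replicate 1 was thus between the wild-type levels at F3 and above both from F4 on, and replicate 2 was above both from F10 on. The slope of the difference was 0.10 per generation (limma adjusted p = 0.000283). The gene hlh-11, which encodes a basic helix-loop-helix transcription factor, went the other way. Replicate 2 held 115.3, 89.8, 39.05, 39.3, 29.8, 29.8, 53.5, 124 and 185 normalized counts, and replicate 1 held 30.9, 18.1, 23, 23, 19, 38.3, 95, 197 and 335. It was called in opposite directions in the 2 periods, at 1.13 in F3 to F7 (limma adjusted p = 0.0279) and -0.64 in F10 to F25 (limma adjusted p = 0.0474). Neither series reached the wild-type levels of 671 and 627, and the slope of -0.12 per generation was lost without the F3 or the F20 pair.

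Gene groups were described by their counts. In their own antisense small RNAs, no member of 4 lists of the RNAi machinery was called by limma: 0 of 28 RNAi factors, 0 of 21 Argonaute genes, 0 of 19 nuclear RNAi and heterochromatin genes and 0 of 29 germ granule genes were called, against 2.07% of all features. Of the 91 distinct genes in these lists, 13 had an unadjusted p under 0.05 (14.3%, against 12.9% of all features), and edgeR and DESeq2 each called 2. The genes called by either tool were wago-11 and rde-11. Outside these lists, rrf-2, a gene of the RNA-dependent RNA polymerase family that was picked after its values were seen, was lower in replicate 2 in 9 of 9 generations (-0.32, limma adjusted p = 0.0178). The median differences of these lists were between -0.02 and 0.05. For sid-1, which encodes a double-stranded RNA channel needed for RNAi to spread between cells, replicate 2 held 1488 to 8303 normalized counts with a median of 6176 and replicate 1 held 1145 to 8450 with a median of 6742. The series overlapped almost wholly, with replicate 2 higher in 3 of 9 generations (-0.03, exact sign-flip permutation over 9 pairs p = 0.707, Benjamini-Hochberg adjusted over 7 measures 0.825). Its sign turned under other settings, to 0.05 with equal library totals and 0.01 without the F10 pair.

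For rde-11, which encodes an RNAi amplification factor, replicate 2 held 462 to 3852 normalized counts with a median of 2156 and replicate 1 held 465.7 to 2925 with a median of 1190. Replicate 2 was higher in 6 of 9 generations, by 0.40 ± 0.10 on the log2 scale. The limma adjusted p was 0.0612 over all 9 pairs and 0.00526 in F3 to F7. The exact permutation p was 0.0312, or 0.109 when adjusted over 7 measures, where 0.0039 is the smallest p that 9 pairs allow.

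The nuclear RNAi target list, genes whose silencing depends on the nuclear pathway, had 3 of 7 members higher in replicate 2 and 0 lower, against 2.07% of all features called and 1.23% higher. Both loci named F07B7.2 were among them, at 0.93 and 0.79. The first held 309 to 689 normalized counts in replicate 2 and 164 to 285 in replicate 1, against 722 and 745 in wild type. The other held 296 to 645 in replicate 2 and 191 to 298 in replicate 1, and its call was lost with no filter on low values. These loci share a name and lie near each other on chromosome V, each next to a locus named F07B7.1 (0.43 and 0.52). Their sequences were not compared here, and if they are copies, reads may be split between them, so the 4 are not taken as separate observations. The other member was dnj-24, which encodes a protein with a DnaJ domain (0.34, limma adjusted p = 0.00496), a call lost with no filter on low values and without the generation block.

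F-box A and B genes, substrate adaptors of ubiquitin ligases, had 4 of 128 higher and 0 lower (3.12% called, against 2.07% of all features), with the pseudogene fbxa-129 as the largest at 0.72. MATH and BATH genes had 2 of 41 higher and 0 lower, bath-19 and the pseudogene bath-14 (0.36), 4.88% of the list. The call of bath-14 was lost with no filter on low values and without the generation block. Of 408 pseudogenes, 13 were higher and 6 lower (4.66%, against the same 2.07%), with Y102A5C.6 (0.84) and M162.12 (0.74) higher and fbxc-37 (-0.85) lower. The call of fbxc-37 was lost without any 1 of several pairs, and that of M162.12 without the F7 pair and with no filter on low values. Among single calls were col-111, a collagen gene (0.81, 1 of 23), rimb-1, which encodes a synaptic scaffold protein (0.49, 1 of 12 neuron genes, lost with no filter on low values and without the generation block), the piRNA pathway gene pid-4 (0.25, 1 of 21), linc-6 (0.29, 1 of 42 long intergenic RNAs) and ugt-22 (0.90, 1 of 31 stress genes), which had at most 24.7 normalized counts. Of 15 ERGO-1 target genes 1, F39E9.7, was lower (-0.39), 1 of 5 ribosomal RNA genes, rrn-2.1, was higher (0.41), and 2 of 53 small nucleolar RNAs were lower, C41C4.11 (-0.55) and 1 other (-0.32). The calls of pid-4, linc-6, ugt-22 and of these last 4 were lost without the F5, F6 or F7 pair, and so was that of col-111.

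Lists that mark cell types of the whole animal, neuron genes apart, had no member called by limma. None was called among 7 genes of major sperm proteins, 22 further sperm genes, 21 of oocyte and eggshell, 26 of germline mitosis and meiosis, 6 of intestine and 6 of muscle, nor among 44 histone and 80 ribosomal protein genes. Of these 212 distinct genes, 30 had an unadjusted p under 0.05 (14.2%), and edgeR called 4 and DESeq2 1, from the histone and ribosomal protein lists (his-47, his-50, his-61 and rpl-3). The medians of these lists were between -0.20 for muscle genes and 0.15 for intestine genes. Male-biased genes (2), heat shock genes (12), intracellular pathogen response genes (8) and dosage compensation and sex determination genes (19) also had 0 calls, with 2 of 41 at an unadjusted p under 0.05 and 0 by edgeR and DESeq2. These are levels of antisense small RNAs and not of messenger RNAs.

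Of 569 features of non-coding biotypes, 8 were steady (1.41%, against 1.15% of all features). Called were 23 (4.04%, against 2.07% of all features), 3 higher and 20 lower. Over all features, 109 were called higher and 75 lower, and 65 were steady higher and 37 steady lower. The 3 higher ones were rrn-2.1, linc-6 and R10D12.18 (0.56). All 8 steady ones were lower in replicate 2. By the mean of the control pairs, replicate 2 was lower at 8 of the 8 as well (median -0.64 in descendants and -0.38 in controls). At F10C2.11, which lies opposite mir-87 and so holds its microRNA reads, replicate 2 held 1069 to 1530 normalized counts and replicate 1 held 1519 to 2136. The difference of -0.51 ± 0.07 (limma adjusted p = 0.00172) was matched by -0.50 in the controls. At F31C3.16, opposite the ribosomal RNA gene rrn-3.56, the difference was -0.53 (limma adjusted p = 0.0115) and that of the controls -0.72. Its level was 4380 to 6501 normalized counts in replicate 2 and 5285 to 10842 in replicate 1. At T05E12.10 (-0.66, limma adjusted p = 0.00365) and K11C4.7 (-0.62, limma adjusted p = 0.00243) the controls differed by -0.08 and -0.09. At K11C4.7 that is the mean of 2 pairs that went opposite ways. Replicate 2 had 94.3 and replicate 1 had 156 in meg-3/4, and replicate 2 had 63.6 and replicate 1 had 42.8 in wild type. Of these 4, all but F10C2.11 lost their call without the generation block, and F31C3.16 and T05E12.10 also with no filter on low values.

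Of the 20 features opposite microRNA genes, 4 were lower and 0 higher in replicate 2 (20.0%, against 2.07% of all features), and the median of the list was -0.50. They were F10C2.11, C13B4.6 opposite mir-234 (-0.58), T24D8.16 opposite mir-74 (-0.72) and K01F9.7 opposite mir-90 (-0.53). The call of C13B4.6 was lost with no filter on low values, and those of T24D8.16 and K01F9.7 were lost without the F6, F7, F15 or F25 pair. The share of normalized counts was summed over all 27 listed features opposite microRNA genes, the 20 tested ones among them. It was 15.3 to 26.96% in replicate 2 (mean 19.2% ± 3.34, SD, n = 9), and 17.4 to 33.1% in replicate 1 (24.5% ± 5.00, n = 9). Replicate 2 was lower in 8 of 9 generations, F4 being the exception, with a mean difference of -5.23 percentage points (exact sign-flip permutation over 9 pairs, p = 0.0586, adjusted over 7 measures 0.137). Without the shallow F4 and F10 pairs the mean was -6.37 points in 7 pairs (exact p = 0.0156, the smallest that 7 pairs allow). The controls differed in the same direction, by -6.87 points in meg-3/4 and -0.90 in wild type. The part of the replicate number in this share was not tested beyond those 2 pairs. Most of the share lay in 2 features that were not called. They were F16A11.6 opposite mir-71 (mean 10.9% in replicate 2 and 13.6% in replicate 1) and K01F9.6 opposite mir-80 (6.22% and 8.35%). Their mean differences were -2.67 and -2.14 percentage points (exact sign-flip permutation over 9 pairs, p = 0.0938 and 0.0195, adjusted over 7 measures 0.164 and 0.109).

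**Figure D4:**
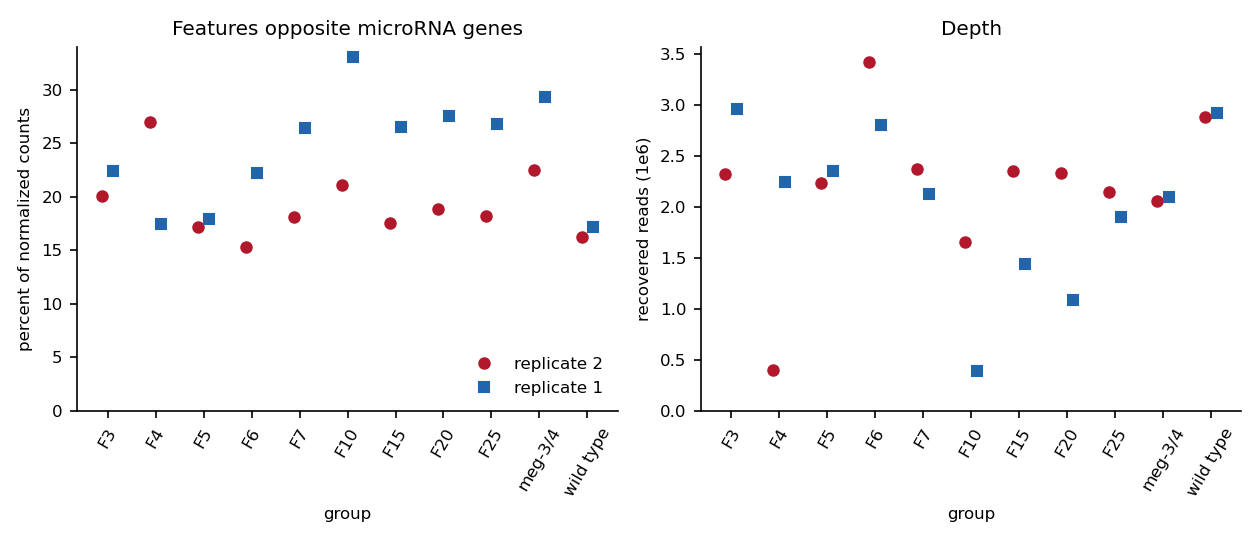
Left, percent of normalized counts in features opposite microRNA genes, and right, recovered reads per library, for replicate 2 (red circles) and replicate 1 (blue squares) of each descendant generation and of meg-3/4 and wild type. Replicate 2 has the lower share in every pair except F4, controls included, and the 2 shallow libraries are replicate 2 of F4 and replicate 1 of F10.

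The steady features were read against the meg-3/4 state, which was called between the meg-3/4 and wild-type libraries in a fit that also held the triple mutants and no descendant library (1161 features gained and 1960 lost in meg-3/4, 35.2% called). Of the 102 steady features, 25 were gained in meg-3/4, 53 were lost and 24 were not called there. Of all gained features, 29 were higher and 20 lower in replicate 2 (4.22%). Of all lost features, 60 were higher and 31 lower (4.64%). The share was 0.766% of the 5748 features not called in meg-3/4 and 2.07% of all features. Neither series was the one nearer to wild type throughout. Among steady features replicate 2 was nearer to wild type in 7 of the 25 gained and 24 of the 53 lost, and replicate 1 in 18 (72.0%) and 29 (54.7%). Over all gained and all lost features, replicate 1 was nearer in 61.4% and 59.7%. The gained and lost lists rest on groups of 2: leaving out 1 wild-type library reduced the 3121 calls to 2031 or 2002.

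Over both series, the level itself went up with generation number at 1224 features (13.8%) and down at 666 (7.51%, 21.3% in all; limma, without a replicate block). As whole lists, the lost features moved back towards wild type in both series, and at F25 replicate 1 was nearer to it. Their median level relative to wild type was -0.82 in replicate 2 and -0.85 in replicate 1 at F3, on the log2 scale. It was -0.54 and -0.43 at F15, -0.44 and -0.33 at F20, and -0.35 and -0.12 at F25. The gained list had medians of 0.34 and 0.34 at F3 and of 0.17 and 0.06 at F25. Replicate 2 minus replicate 1 at the gained list was 0.11 at F25, and in the control pairs it was -0.12 in meg-3/4 and 0.01 in wild type. At the lost list the control pairs differed by -0.03 in meg-3/4 and 0.04 in wild type. Replicate 2 minus replicate 1 at the lost list was between -0.04 and 0.06 up to F10, and it was -0.11 at F15, -0.10 at F20 and -0.23 at F25. That order at F15 and F20 was lost when libraries were scaled to the same total, a setting added after the data were seen, where the differences were 0.01 at F15, 0.01 at F20 and -0.13 at F25. At klf-1, replicate 2 was the nearer to wild type at F25.

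**Figure D5:**
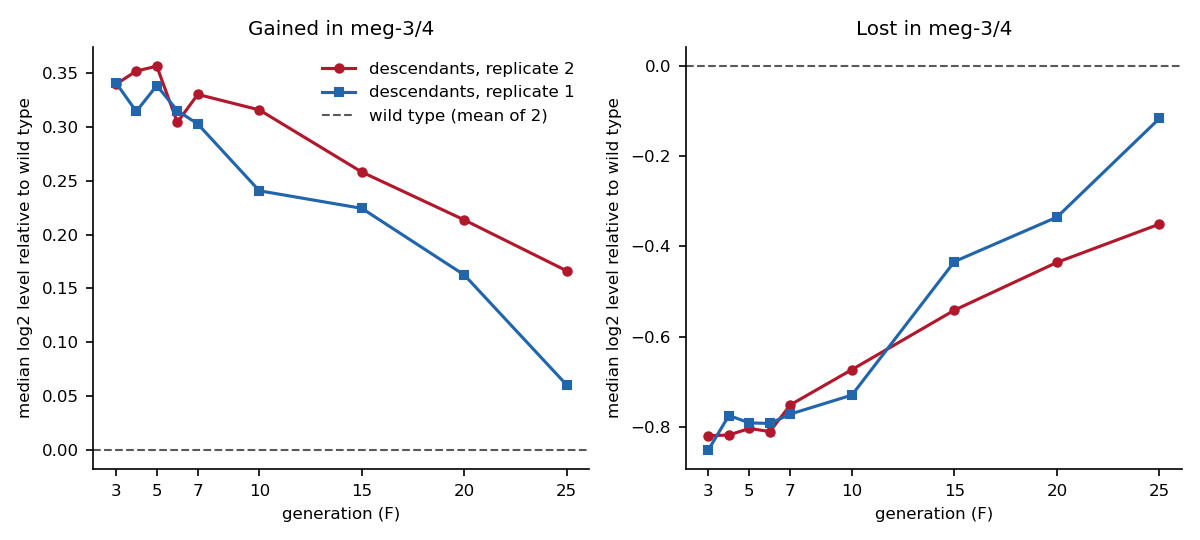
Median log2 level relative to the wild-type mean (dashed line) of the 1161 features gained and the 1960 features lost in meg-3/4, by generation, in replicate 2 (red circles) and replicate 1 (blue squares). Both lists move towards wild type, and replicate 1 is the nearer at F15, F20 and F25 in both panels with the deposited scaling. With equal library totals the lost list differs by 0.01 at F15 and F20, and replicate 2 is the nearer at F25 in the gained list (0.07, against -0.15).

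Steady features were spread over the genome. They made up 1.72% of the features tested on chromosome V (24), 1.53% on IV (24), 1.15% on I (20), 0.942% on II (15), 0.789% on III (13) and 0.481% on X (4), against 1.15% of all features, and 2 had no position. Within 50 kb of each other lay 15 pairs of neighbouring steady features, 9 with the same direction and 6 with opposite directions. The 9 include the pairs among the F07B7.1 and F07B7.2 loci, which are not taken as separate observations, and the overlapping seld-1 and afmd-2. How often neighbouring features in general share a direction was not counted. Besides these, neighbours with the same direction included anc-1 (0.99), which encodes a nuclear anchorage protein, and ZK973.8 (0.90). Neighbours with opposite directions included C25D7.5 (0.65) and C25D7.15 (-0.73), and Y102A5C.36 (1.18) and Y102A5C.4 (-0.26).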

How the data were processed

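Small RNA libraries were made from gel-purified RNA of about 15 to 30 nucleotides, treated so that triphosphorylated small RNAs could be cloned, and read on a NextSeq500, per the labels' protocols. The authors deposited 1 table of signal values (normalized counts) for 46726 features. Cutadapt, Bowtie, featureCounts and DESeq2 are named, per the submitters' processing notes; their versions, the build and the annotation were not given in the sources used here. All 386038 values above 0 were whole reads (within 0.01) divided by 1 factor per library. Names, biotypes and positions came from Ensembl release 115 (WBcel235), matched by identifier for 46364 features, and 2688 names missing there from RefSeq by identical position. The counted strand was read from 28 pairs of a non-coding feature and a facing microRNA gene: in 26 the feature held more reads than the microRNA gene.

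The fits used the 8869 features that reached 10 normalized counts in 2 or more of the 24 libraries. The tests were those of limma (version 3.58.1, in R 4.3.3) with its trend option, on log2(normalized count + 5), which understates changes of weakly covered features. They were two-sided, and p-values were adjusted by Benjamini and Hochberg's method over all 8869 features, with 0.05 as the threshold. Single measures had an exact sign-flip permutation test over 9 pairs. Recovered reads were also tested with edgeR 4.0.16 and DESeq2 1.42.0, as alternatives. The fits were also run on simulated counts that were drawn independently for each library. That run cannot show whether the p-values hold where generations of a series are related. Depth sets the precision: a feature with 0 reads could lie at up to 3 reads, or 15 normalized counts in the F4 library of replicate 2 and 16.4 in the F10 library of replicate 1 (counting error only).

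Named features are the 12 steady ones with the largest difference in each direction and a mean of at least 50, up to 3 called members of each list, the 4 largest slopes in each direction at that mean, the 2 calls against the controls, and sid-1 and rde-11. Neighbours, loci beside named genes and steady non-coding features were named after their values were seen. The comparison, members and lists were chosen with earlier results of these data known. The 2 triple-mutant libraries entered only the filter, the meg-3/4 fit and 1 alternative.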

Additional observations from a re-analysis of the deposited data

Results flagged for a closer look

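In the share of counts in F16A11.6, the feature opposite mir-71, the F4 pair stood away from the other 8: replicate 2 minus replicate 1 was 6.9 percentage points at F4 and between -8.07 and -0.58 in the others. The F4 library of replicate 2 is 1 of the 2 shallow ones, and its part in this was not tested. Of 60 such series of differences tested, 1 stood apart in this way, where chance gives about 1 in 20.

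The trend over generations differed between the series, as a tested difference of slopes in log2 per generation (replicate 2 minus replicate 1), at 8 named features. It was -0.17 at F42A9.8, -0.15 at bath-19, -0.13 at E01G4.3 and -0.12 at hlh-11. It was 0.12 at his-47, 0.11 at F22H10.10, 0.10 at cdk-14 and 0.10 at Y55F3BR.2.

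The difference between replicates was not the same in descendants and controls, by a test of that contrast, at seld-1 (5.02) and at K11H3.2 (2.07). At K11H3.2 it was 1.04 in descendants and -1.04 in controls.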

How the results depend on the processing

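All of the 47 named features called in the series comparison kept their direction under the alternatives run. Several of these could not have turned it. The filter and the generation block do not change the estimated difference. Steady features lie on 1 side in every pair, so leaving out pairs or changing the pseudocount cannot turn them. Of the 47, 16 kept their call under all alternatives, as did 2 of the 8 named slopes (F22H10.10 and Y55F3BR.2). The 184 calls became 36 with no filter on low values (27 higher, 9 lower), 47 without the generation block, 487 with library weights, 360 with edgeR, 283 with DESeq2 and 300 without the F4 and F10 pairs. The 102 steady features became 36 with no filter and 214 without the F4 and F10 pairs. The 46 slopes became 6 with no filter, 117 with library weights, 119 with edgeR, 89 with DESeq2 and 126 without the F4 and F10 pairs. Late calls numbered 42 with a pseudocount of 1 and 379 with equal library totals (71 as reported), which shifted the median of all features by 0.11 late and by -0.32 for meg-3/4 against wild type. The split for meg-3/4 was then 444 gained and 3247 lost. Leaving out 1 pair gave 83 to 277 calls for the series, 68 to 176 steady features, 127 to 420 early calls, 32 to 115 late calls and 26 to 83 slopes. Leaving out 1 control pair gave 1 to 5 control calls and 1 to 6 against the controls, and 11 against the controls with the triple-mutant pair added to them. Leaving out a library gave 2002 to 2939 calls for meg-3/4. The difference at sid-1 turned to 0.046 with equal library totals, and leaving out 1 pair gave -0.075 (F25) to 0.0072 (F10). Replicate 2 minus replicate 1 in the median of the lost list was 0.01 at F15, 0.01 at F20 and -0.13 at F25 with equal library totals (added after seeing the data), and -0.11, -0.10 and -0.23 as reported. The causes were not tested.

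The trend over generations, which has no replicate block, called 1890 features, and 1998 with the replicate number as a block. As a check of the pairing, replicate 2 minus replicate 1 was correlated between generations across 4389 features with a mean of at least 50. Pearson's r was over 0.1 in 30 of 36 pairs of generations (median 0.321, range -0.056 to 0.666) and in all 4 pairs of consecutive generations from F3 to F7. Pearson's r was 0.077 between F3 and F25. Spearman's rho, which weighs extreme features less, was lower than Pearson's r in every pair of generations. It ranged from -0.111 (F4 with F10) to 0.388 (F6 with F7). For F3 with F4 it was 0.207, against a Pearson's r of 0.444, and for F3 with F25 it was 0.010. With the control pairs, the median of Pearson's r was 0.064 for meg-3/4 and 0.017 for wild type. Pearson's r was over 0.1 in 4 of 9 generations with the meg-3/4 pair (range -0.097 to 0.221) and in 1 of 9 with the wild-type pair. The difference of the meg-3/4 pair was thus weakly shared with some generations, with 0.209 at F6, 0.209 at F7 and 0.221 at F20. Features within a library share its depth, and the numbers are not shown by the labels to follow 1 line.

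Shallow depth in F4 replicate 2 and F10 replicate 1 limits features under about 16.4 normalized counts. The controls are 2 pairs, and steadiness over generations cannot be told apart from a property of the replicate number shared by all libraries of a series.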
